A study of Mus musculus with 12 samples.

Results

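The IL-1 family receptor genes Il1r1, Il1r2, Il1rl1, Il1rl2, Il18r1 and Il18rap stand side by side on mouse chromosome 1, and their open chromatin was measured in regulatory T cells (Treg) with and without the transcription factor Ikaros, the product of Ikzf1. A region of open chromatin was taken as part of the cluster when it overlapped 1 of the 6 gene bodies extended by 20 kb on each side in the mm9 annotation. The rule used positions only and no measured value, and it found 41 of the 118680 regions. ATAC-seq, which reads open chromatin from where Tn5 transposase inserts into DNA, had been run on 12 libraries of 100000 YFP+ Treg sorted from mice, labelled as derived from spleen, 3 for each of 4 groups. The groups were WT ex vivo, Ikzf1-cko ex vivo, and both genotypes stimulated for 4 hr by anti-CD3 and anti-CD28 bound to the plate. WT mice were Foxp3-YFP-Cre and Ikzf1-cko mice were Ikzf1-fl-Foxp3-YFP-Cre, so both genotypes carried the Cre and the YFP reporter. The Cre is expressed from the Foxp3 locus, so that deletion is directed to cells that express Foxp3. The age of the mice and the number of mice behind each library are not given in the sources used here.

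The IL-1 family receptors are membrane proteins with immunoglobulin domains outside the cell. In those that signal, a TIR domain inside the cell recruits MyD88 and IRAK kinases toward NF-kB. Il1r1 encodes the signaling receptor for IL-1, whereas Il1r2 encodes a decoy that binds IL-1 without signaling and is found on activated Treg. Il1rl1 encodes ST2, the receptor for the alarmin IL-33 and a mark of effector Treg in tissues, and Il1rl2 encodes the receptor for IL-36. Il18r1 and Il18rap encode the chains of the IL-18 receptor, which binds IL-18 through the first and signals once the second joins.

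All 6 genes lie on the plus strand, and in mm9 coordinates of chromosome 1 the order is Il1r2 (40141613 to 40182064), Il1r1 (40281925 to 40373043), Il1rl2 (40381472 to 40422316), Il1rl1 (40486415 to 40522260), Il18r1 (40522397 to 40557699) and Il18rap (40572207 to 40608550). Of the 41 regions, 22 were in introns, 10 touched an exon and 9 were intergenic. The window of Il1r2 held 10 regions, that of Il1r1 4, that of Il1rl2 8, that of Il1rl1 15, that of Il18r1 10 and that of Il18rap 6. Neighbouring windows share regions, and none of the 10 regions of Il18r1 belonged to its window alone.

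The reference sequences of 5 regions are shown because the results below turn on them: the intergenic region upstream of Il1rl1 and the Il18rap intron region that were higher in Ikzf1-cko Treg, and 3 regions of the Il18r1 introns, among the most accessible of the cluster. Each is the central 300 bases in the mm9 (NCBIM37) reference, written 5′ to 3′. Capitals mark GGGAA, the core of the Ikaros binding sequence.
OCR_1287 (chr1:40469294-40469593, plus strand): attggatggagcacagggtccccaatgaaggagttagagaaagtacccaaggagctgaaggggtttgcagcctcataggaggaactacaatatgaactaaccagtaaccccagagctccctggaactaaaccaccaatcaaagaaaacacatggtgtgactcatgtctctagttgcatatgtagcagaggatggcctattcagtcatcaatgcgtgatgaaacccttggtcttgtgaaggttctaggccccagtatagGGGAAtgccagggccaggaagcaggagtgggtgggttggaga
OCR_1305 (chr1:40586244-40586543, plus strand): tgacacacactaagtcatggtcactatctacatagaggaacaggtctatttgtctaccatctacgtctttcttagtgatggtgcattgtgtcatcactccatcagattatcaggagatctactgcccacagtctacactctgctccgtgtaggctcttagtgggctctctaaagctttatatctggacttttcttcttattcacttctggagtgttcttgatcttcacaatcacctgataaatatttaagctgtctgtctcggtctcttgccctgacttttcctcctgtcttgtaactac
OCR_1299 (chr1:40532569-40532868, plus strand): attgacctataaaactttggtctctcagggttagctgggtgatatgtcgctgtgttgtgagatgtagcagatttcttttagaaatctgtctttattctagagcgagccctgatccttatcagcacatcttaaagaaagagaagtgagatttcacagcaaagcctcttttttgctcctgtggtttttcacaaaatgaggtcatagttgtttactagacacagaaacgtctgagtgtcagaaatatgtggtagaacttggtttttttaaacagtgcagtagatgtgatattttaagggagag
OCR_1301 (chr1:40536406-40536705, plus strand): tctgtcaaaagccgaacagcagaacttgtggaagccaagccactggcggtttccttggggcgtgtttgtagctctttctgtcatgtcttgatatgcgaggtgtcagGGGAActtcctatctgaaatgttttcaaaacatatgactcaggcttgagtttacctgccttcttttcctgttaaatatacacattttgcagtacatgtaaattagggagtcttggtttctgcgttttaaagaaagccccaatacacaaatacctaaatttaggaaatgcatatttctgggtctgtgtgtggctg
OCR_1297 (chr1:40526852-40527151, plus strand): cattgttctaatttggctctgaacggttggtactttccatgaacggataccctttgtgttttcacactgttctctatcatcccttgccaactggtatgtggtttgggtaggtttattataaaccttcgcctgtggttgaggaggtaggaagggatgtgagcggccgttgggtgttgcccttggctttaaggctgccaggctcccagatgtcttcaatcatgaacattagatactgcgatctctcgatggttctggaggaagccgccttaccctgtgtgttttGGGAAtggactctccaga
The sequences of OCR_1287, OCR_1301 and OCR_1297 each hold 1 GGGAA, at positions 259, 107 and 283 counted from 1 at the first printed base, and those of OCR_1305 and OCR_1299 hold none on either strand. The AP-1 sequence TGACTCA starts at position 157 of OCR_1287 and at position 141 of OCR_1301. In OCR_1287 it overlaps the T-box sequence TCACACC, which lies on the minus strand from position 153. OCR_1299 holds the forkhead sequence TGTTTAC at position 206, and OCR_1297 holds the STAT sequence TTCNNNGAA at position 35. Within OCR_1305 none of these sequences, nor the GATA sequence AGATAA, was found in the printed window.

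For each region the 300 bases around its centre were searched, which include flanking DNA where the region was shorter. They held GGGAA on either strand in 28 of the 41 (68.3%), compared to 59.0% of 118479 regions of the genome. TGACTCA was present in 8 of 41 (19.5%) compared to 11.01% of all regions, and TTCNNNGAA also in 8 (19.5%) compared to 8.18%. AGATAA was present in 7 (17.1% compared to 12.7%), TGTTTAC in 3 (7.32% compared to 3.69%) and TCACACC in 2 (4.88% compared to 5.25%). These letters are a description of the DNA and not of bound factors. The regions of the cluster had a median length of 512 bp and a median GC content of 46.6%, compared to 410 bp and 50.0% over all regions.

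Reads counted over all regions ranged from 4808916 to 15355521 per library, and each Ikzf1-cko library was deeper than any WT library, so that genotype and depth cannot be told apart. Levels are given as the authors' deposited FPKM, which scales reads by region length and by the counted reads of the library. Counts were tested with the quasi-likelihood F-test of edgeR in 69957 regions that reached 3.6 CPM in 3 or more libraries. A region was called at a Benjamini-Hochberg FDR under 0.05 together with a log2 fold change beyond 1 in either direction, thresholds taken from the study. Of the 41 regions, 29 were tested. The methods call the 3 libraries of a group biological replicates but tie none to an animal. They also say that the sorted Treg were divided between stimulation and no stimulation, without saying whether libraries with the same number came from the same sort, so that p-values measure the spread between these libraries. With bulk Treg, a larger share of cells with an open region and more accessibility per cell cannot be told apart. Between genotypes the tested regions of the genome had a median log2 fold change of -0.13 ex vivo and -0.11 after stimulation, and a value of a cluster region is to be read against these.

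The cluster was moderately accessible on the whole, with a single tall block inside Il18r1. The median of its regions, taken over the mean FPKM of all 12 libraries, was 7.68 FPKM, compared to 7.60 FPKM over all regions. The regions over the start and introns of Il18r1 stood above that. OCR_1301 (40536281 to 40536830), in an Il18r1 intron, had the highest level of the cluster at 36.1 FPKM, followed by OCR_1299 (40532408 to 40533028), also intronic, at 31.9 FPKM. In WT ex vivo Treg these levels lay at the 94.9 and 95.5 percentiles of all regions. OCR_1295 (40522287 to 40522846), over the Il18r1 start site, had 21.02 FPKM, and OCR_1297 (40526722 to 40527280), 3.87 kb past the nearest Il18r1 start, had 18.6 FPKM.

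**Figure D1:**
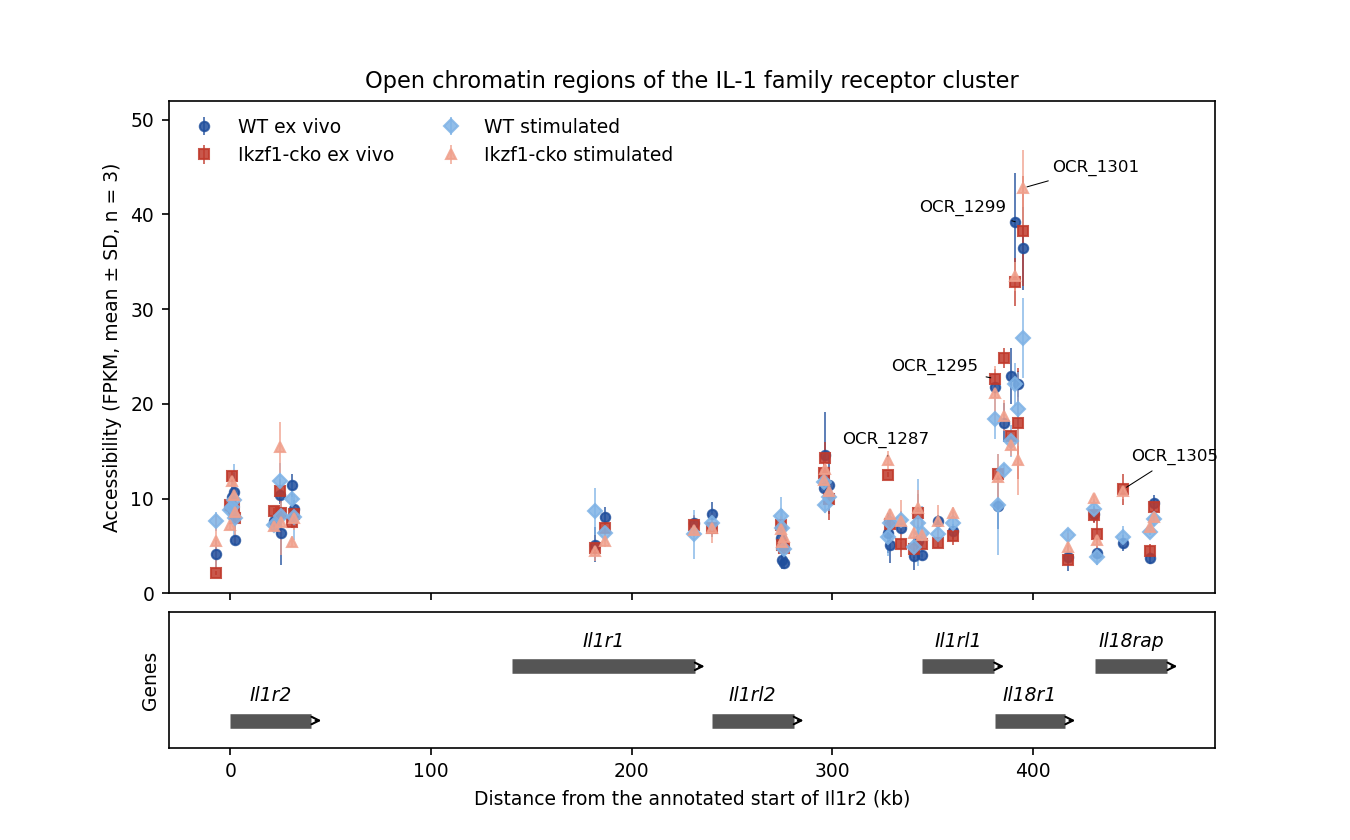
Mean accessibility in FPKM (vertical axis, points with SD bars, n = 3 libraries) of the 41 regions against the distance of their centre from the Il1r2 start in kb (horizontal axis), with the 6 gene bodies and their direction below. The highest points are the Il18r1 intron regions OCR_1301 and OCR_1299, while the regions of Il1r2, Il1r1, Il1rl2 and Il18rap stay near the median of 7.68 FPKM.

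Outside that block the levels of the genes were close to each other. In WT ex vivo Treg, the reads of a gene's regions divided by their summed length gave 17.3 ± 0.941 FPKM (SD, n = 3) for Il18r1, the binding chain of the IL-18 receptor. The Il1rl1 window had 14.6 ± 0.620 FPKM, but it shares 7 regions with Il18r1, and its 8 own regions had 5.70 ± 0.545 FPKM. Next came Il1rl2 with 8.59 ± 0.570 FPKM, Il1r2 with 8.51 ± 0.534 FPKM and Il1r1 with 7.58 ± 0.761 FPKM. The libraries of Il1rl2 and Il1r2 overlapped, as did those of Il1r2 and Il1r1. Il18rap, the signaling chain of the IL-18 receptor, was lowest at 5.62 ± 0.129 FPKM. In Ikzf1-cko ex vivo Treg Il18rap had 7.60 ± 0.974 FPKM, above Il1r1 with 6.62 ± 0.647 FPKM.

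Over the whole cluster the WT ex vivo libraries had 9.70 ± 0.317 FPKM and the Ikzf1-cko ex vivo libraries 10.3 ± 0.491 FPKM, whereas the stimulated libraries had 8.98 ± 0.315 FPKM in WT and 10.6 ± 0.219 FPKM in Ikzf1-cko. Each stimulated WT library was below each ex vivo WT library and each Ikzf1-cko library, and the Ikzf1-cko groups overlapped. The Il18r1 window had 13.4 ± 1.14 FPKM in stimulated WT compared to 17.4 ± 0.232 FPKM in stimulated Ikzf1-cko Treg. The other direction in WT was seen in Il18rap, which had 5.62 FPKM ex vivo and 6.48 FPKM after stimulation, and in the regions of Il1rl1 alone, which had 5.70 and 6.61 FPKM. In Ikzf1-cko Treg Il18rap had 7.60 FPKM ex vivo and 8.30 FPKM after stimulation, and the regions of Il1rl1 alone had 6.73 and 8.31 FPKM. The regions of Il1r2 hardly differed, with group means of 8.51, 9.04, 8.57 and 8.90 FPKM. These sums are descriptions without a test, since tests were made per region.

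The first comparison asked which regions of the cluster differ without Ikaros in Treg taken directly ex vivo. Of the 29 tested regions, 2 passed both thresholds, OCR_1287 upstream of Il1rl1 and OCR_1305 inside Il18rap, and both were higher in Ikzf1-cko Treg. Over all tested regions 4.63% passed both thresholds. By FDR alone 3 regions were higher (8.78% of all tested regions) and 1 was lower (12.7% of all). The 29 regions had a median log2 fold change of 0.05, compared to -0.13 for all tested regions.

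OCR_1287 (40469237 to 40469650) is intergenic, 16.8 kb upstream of the first Il1rl1 start site, and its sequence above holds GGGAA and TGACTCA. It had 7.44, 7.68 and 3.93 FPKM in WT ex vivo libraries 1 to 3 and 12.4, 12.3 and 12.8 FPKM in Ikzf1-cko ex vivo libraries 1 to 3. These values rest on 16, 24 and 14 reads in WT and 79, 70 and 62 reads in Ikzf1-cko. OCR_1287 reached 3.6 CPM in 6 libraries, all of Ikzf1-cko Treg, so it entered the test only through the genotype where it was high. All Ikzf1-cko libraries were above all WT libraries, and the third WT library was the lowest. The log2 fold change was 1.02 (SE 0.24, adjusted p = 0.0024). Among tested regions of similar level (the same 1 of 10 equal classes by mean FPKM) the median log2 fold change was -0.19, and 4.95% were higher past the FDR.

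OCR_1305 (40585701 to 40587086) is a wide region in an intron of Il18rap, 11.5 kb upstream of an internal start site of the gene. It had 4.30, 5.74 and 5.88 FPKM in the WT ex vivo libraries and 10.99, 12.6 and 9.31 FPKM in the Ikzf1-cko ex vivo libraries. The lowest Ikzf1-cko library was well above the highest WT library. The log2 fold change was 1.02 (SE 0.15, adjusted p = 1.4e-05), compared to a median of -0.30 among regions of similar level. The start region of the same gene, OCR_1303 (40571652 to 40572634), had 8.40 ± 0.864 FPKM in WT and 8.28 ± 0.845 FPKM in Ikzf1-cko (SD, n = 3), and the 95% interval of its log2 fold change was -0.32 to 0.27.

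Both calls lie just over the fold threshold. Without WT ex vivo replicate 3 the log2 fold change of OCR_1287 was 0.72, and without WT ex vivo replicate 1 or Ikzf1-cko ex vivo replicate 2 that of OCR_1305 was 0.92 or 0.91, so that the number of called regions fell from 2 to 1 in each case. In all of these fits both regions stayed past the FDR and higher in Ikzf1-cko Treg.

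Inside Il18r1 the regions moved in different directions ex vivo. OCR_1297 was higher in Ikzf1-cko Treg, with 17.9, 20.1 and 16.02 FPKM in the WT and 24.3, 26.0 and 24.2 FPKM in the Ikzf1-cko libraries (log2 fold change 0.47, SE 0.13, adjusted p = 0.011). OCR_1298 (40530569 to 40530886), the next region downstream, was lower, with 21.2, 21.2 and 26.3 FPKM in the WT and 16.4, 16.5 and 16.9 FPKM in the Ikzf1-cko libraries (log2 fold change -0.48, adjusted p = 0.036). In neither region did the genotypes overlap. OCR_1297 did not pass the FDR without WT ex vivo replicate 3 (0.37) or Ikzf1-cko ex vivo replicate 2 (0.43). The lower level of OCR_1298 passed it under 13 of 21 alternatives and under none that left out a single WT ex vivo replicate (-0.36 to -0.54). OCR_1299 was lower in Ikzf1-cko Treg without passing the FDR, with overlapping libraries (log2 fold change -0.25, 95% interval -0.47 to -0.04, adjusted p = 0.088 by edgeR). OCR_1301 had 34.3, 33.5 and 41.5 FPKM in WT and 41.8, 41.4 and 31.5 FPKM in Ikzf1-cko, with overlapping libraries (95% interval of the log2 fold change -0.17 to 0.31). OCR_1297 and OCR_1298 were named after their values were seen.

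The second comparison set Ikzf1-cko against WT Treg after stimulation, and here the Il18r1 introns joined the regions above. Of the 29 tested regions 1, OCR_1287, passed both thresholds (21.3% of all tested regions did). By FDR alone 6 were higher in Ikzf1-cko Treg, compared to 20.4% of all tested regions, and 0 were lower, compared to 30.7%. The unadjusted edgeR p was under 0.05 in 7 of the 29, compared to 39391 of all 69957 tested regions. The 6 higher regions were OCR_1264 just past the Il1r2 starts, OCR_1287, OCR_1297, OCR_1299, OCR_1301 and OCR_1305, and the median log2 fold change over the 29 was 0.18 compared to -0.11 over all tested regions.

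OCR_1287 had 7.99, 3.97 and 6.03 FPKM in the stimulated WT libraries and 13.1, 14.99 and 14.1 FPKM in the stimulated Ikzf1-cko libraries. The genotypes did not overlap, as they had not ex vivo, and the second WT library was the lowest. The log2 fold change was 1.21 (SE 0.26, adjusted p = 2.6e-04). Without WT stimulated replicate 2 it was under 1 (0.98) and no region of the cluster was called, while its FDR still passed. Its interaction, the stimulation change in Ikzf1-cko minus that in WT, was 0.20 (95% interval -0.52 to 0.91), so that the genotype difference did not detectably change with stimulation.

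OCR_1305 had 6.80, 4.61 and 6.45 FPKM in the stimulated WT and 9.86, 11.4 and 11.01 FPKM in the stimulated Ikzf1-cko libraries. The groups did not overlap, and the log2 fold change of 0.85 (SE 0.16, adjusted p = 1.0e-04) was under the fold threshold. Regions of similar level had a median of -0.42, and 3.87% of them were higher past the FDR. The interaction of OCR_1305 was -0.17 (95% interval -0.62 to 0.28).

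The Il18r1 intron region OCR_1299 had 20.8, 24.7 and 20.8 FPKM in the stimulated WT and 34.7, 31.8 and 33.8 FPKM in the stimulated Ikzf1-cko libraries. All Ikzf1-cko libraries were above the highest WT library, with a log2 fold change of 0.60 (SE 0.13, adjusted p = 3.3e-04). OCR_1301 had 22.6, 27.2 and 31.0 FPKM in the stimulated WT and 46.3, 43.7 and 38.4 FPKM in the stimulated Ikzf1-cko libraries, again without overlap (log2 fold change 0.68, SE 0.14, adjusted p = 2.1e-04). Highly accessible regions as a whole were higher in stimulated Ikzf1-cko Treg by this scaling. In the level class of OCR_1299 the median log2 fold change was 0.30 and 49.8% were higher past the FDR, and in that of OCR_1301 the median was 0.40 with 75.1%. With loess normalization against abundance the log2 fold changes were 0.35 for OCR_1299 and 0.43 for OCR_1301, and both passed the FDR.

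OCR_1297 was the third Il18r1 intron region that was higher, with 12.7, 12.4 and 13.8 FPKM in the stimulated WT and 17.5, 18.2 and 20.6 FPKM in the stimulated Ikzf1-cko libraries (log2 fold change 0.54, adjusted p = 0.0051). OCR_1264 (40141916 to 40143115) lies 0.279 kb past the start of a second Il1r2 transcript and overlaps an exon of Gm16894. It had 9.78, 8.22 and 9.18 FPKM in the stimulated WT and 11.6, 12.6 and 11.4 FPKM in the stimulated Ikzf1-cko libraries (log2 fold change 0.39, adjusted p = 0.023). The libraries did not overlap, but its log2 fold change did not pass the FDR under loess normalization (0.23), without WT stimulated replicate 2 (0.32) or without Ikzf1-cko stimulated replicate 2 (0.34).

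**Figure D2:**
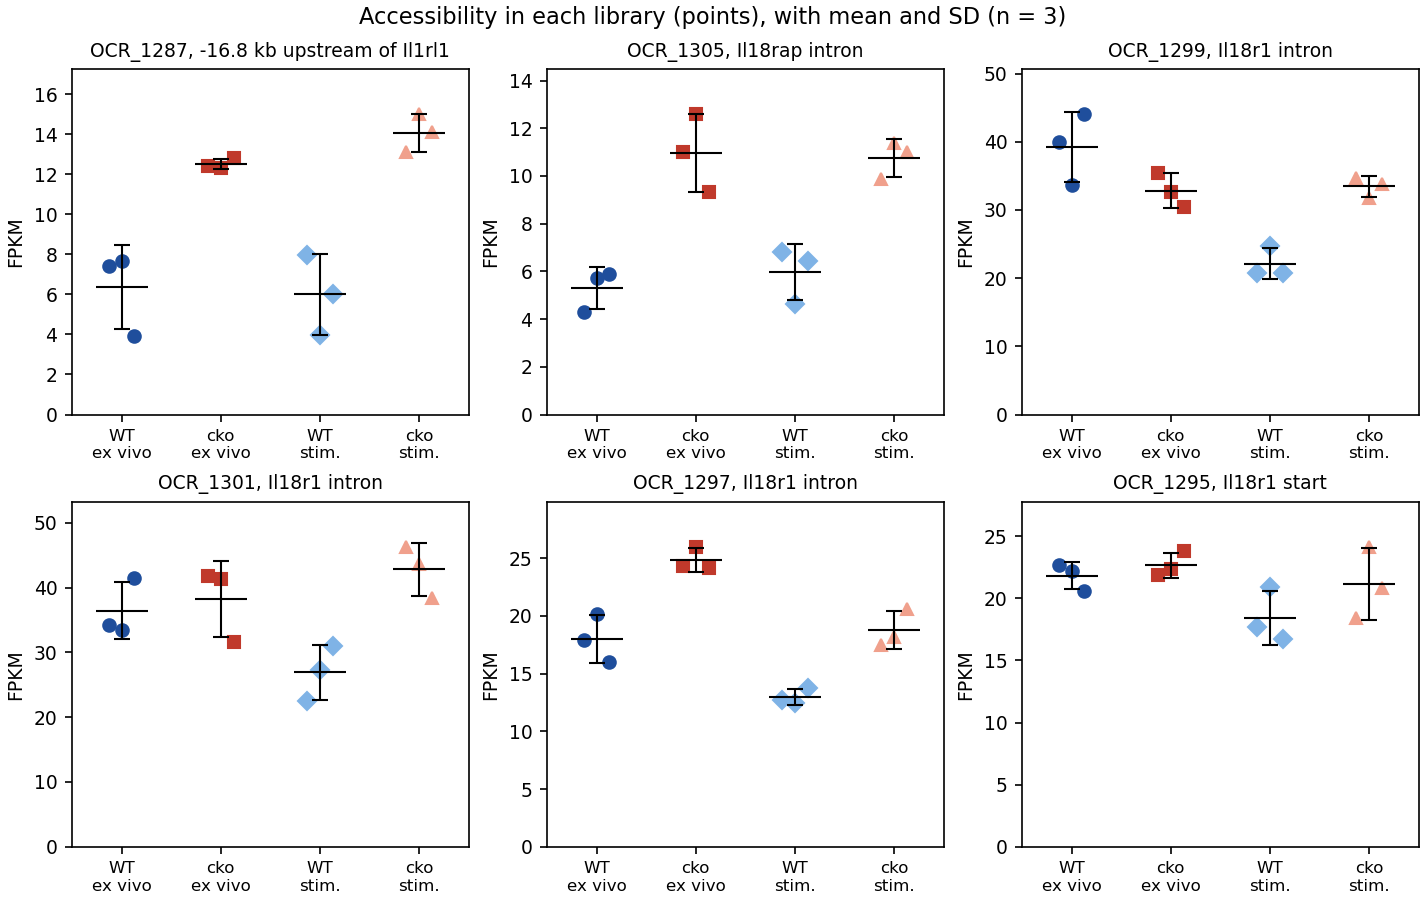
Accessibility in FPKM (vertical axes, starting at 0) in each of the 12 libraries for OCR_1287, OCR_1305, OCR_1299, OCR_1301, OCR_1297 and OCR_1295, by group (horizontal axis), with the mean and SD of 3 libraries. OCR_1287 and OCR_1305 are higher in Ikzf1-cko in both states, OCR_1299 is lowest in stimulated WT Treg, and the groups of OCR_1295, over the Il18r1 start, lie close together.

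**Figure D3:**
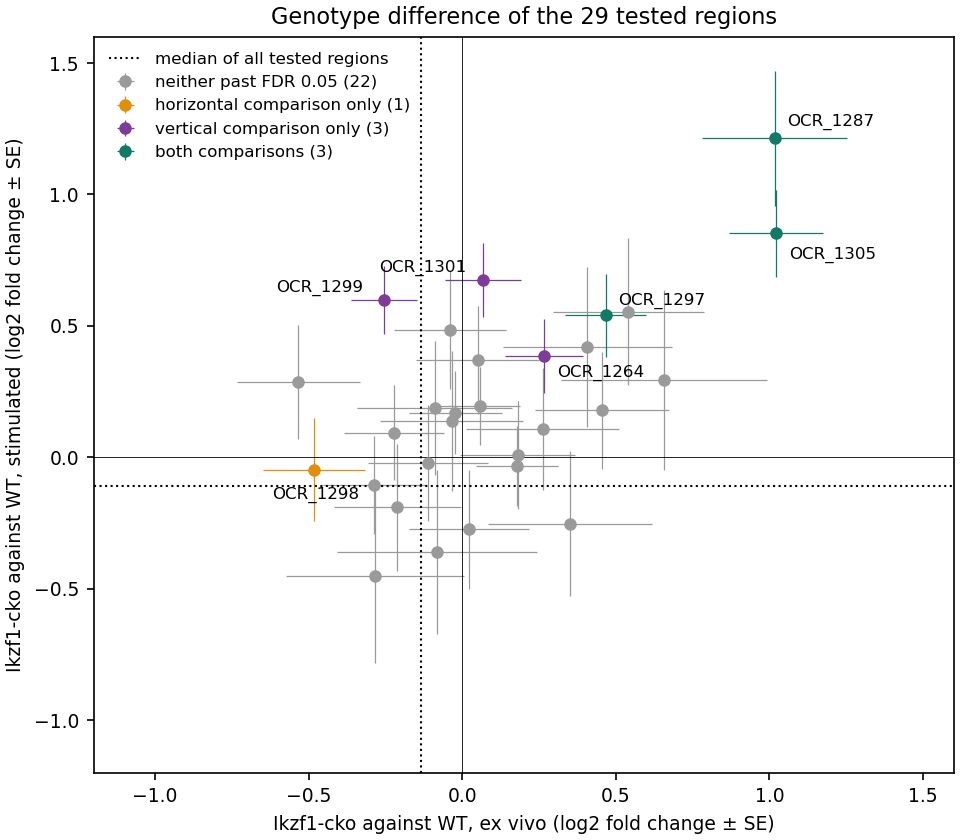
Log2 fold change of Ikzf1-cko against WT ex vivo (horizontal) and after stimulation (vertical) for the 29 tested regions, with SE bars, coloured by which comparison passed the FDR, and dotted lines at the medians of all tested regions. OCR_1287, OCR_1305 and OCR_1297 pass the FDR as higher in both comparisons, and OCR_1299 and OCR_1301 pass it after stimulation.

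By FDR alone, more regions of the cluster fell than rose with stimulation in WT Treg. The share that fell was under that of all tested regions. In WT Treg 0 of the 29 regions passed both thresholds (20.03% of all tested regions did) and 7 had an unadjusted edgeR p under 0.05 (37454 of all 69957). By FDR alone 5 fell (20.7% of all tested regions) and 1 rose (26.9% of all). In Ikzf1-cko Treg 0 passed both thresholds (3.65% of all) and 7 had an unadjusted edgeR p under 0.05 (25340 of all 69957). By FDR alone 3 rose (11.99% of all) and 1 fell (11.5% of all) there. The median log2 fold change of the 29 regions was -0.15 in WT and -0.04 in Ikzf1-cko Treg, compared to 0.04 and 0.06 over all tested regions. The comparisons share libraries: the stimulated WT libraries enter both the genotype difference after stimulation and the stimulation change in WT, and the ex vivo WT libraries both of their comparisons.

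The largest of these changes was that of OCR_1299 in Il18r1. In WT Treg it fell from 39.2 ± 5.20 FPKM ex vivo to 22.1 ± 2.28 FPKM after stimulation (SD, n = 3). No stimulated WT library reached the lowest ex vivo library, and the log2 fold change was -0.83 (SE 0.13, adjusted p = 1.0e-05). In Ikzf1-cko Treg the level was 32.8 ± 2.52 FPKM ex vivo and 33.5 ± 1.52 FPKM after stimulation, with a 95% interval of -0.18 to 0.23 for the log2 fold change. Regions of the same level class had a median of -0.32 in WT, with 47.8% lower past the FDR.

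OCR_1301 fell in WT Treg from 36.4 ± 4.39 to 26.9 ± 4.23 FPKM (log2 fold change -0.46, adjusted p = 0.011), and in Ikzf1-cko Treg it had 38.2 ± 5.79 FPKM ex vivo and 42.8 ± 4.05 FPKM after stimulation (95% interval -0.07 to 0.37). Its fall in WT did not pass the FDR under loess normalization (-0.22), without WT ex vivo replicate 3 or without WT stimulated replicate 1 (-0.34 in each). Regions of the level class of OCR_1301 had a median of -0.34 in WT, with 61.5% lower past the FDR. OCR_1297 fell in both genotypes, with a log2 fold change of -0.47 in WT (adjusted p = 0.02) and -0.40 in Ikzf1-cko (adjusted p = 0.016). Each of these passed the FDR under 17 of 21 alternatives. The WT value missed it under loess normalization (-0.29) and without WT ex vivo replicate 2 (-0.38), WT stimulated replicate 1 (-0.46) or WT stimulated replicate 2 (-0.44), and the Ikzf1-cko value missed it without Ikzf1-cko ex vivo replicate 2 (-0.37) or Ikzf1-cko stimulated replicates 1 (-0.35) or 2 (-0.38), or with DESeq2 (-0.43). The level class of OCR_1297, which also holds OCR_1298, had medians of -0.29 in WT and -0.09 in Ikzf1-cko Treg, with 38.6% and 21.3% lower past the FDR. OCR_1298 fell in WT (log2 fold change -0.52, adjusted p = 0.028), though not past the FDR without WT ex vivo replicate 3 (-0.39) or WT stimulated replicates 1 (-0.52) or 3 (-0.45), or with DESeq2 (-0.56). Outside Il18r1, the intergenic region OCR_1281 (40437836 to 40438309), the most accessible in the window of the IL-36 receptor gene Il1rl2, fell in WT from 14.7 ± 4.53 to 9.37 ± 0.890 FPKM (log2 fold change -0.66, adjusted p = 0.018). That fall was not past the FDR without WT ex vivo replicate 2 (-0.36), which had the highest value of 19.8 FPKM, or without WT stimulated replicate 1 (-0.58).

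OCR_1306 (40599452 to 40600118), over an Il18rap exon, rose in both genotypes. It had 4.04, 2.98 and 4.19 FPKM in WT ex vivo and 6.45, 6.85 and 6.24 FPKM in stimulated WT libraries, and 4.39, 5.23 and 3.72 FPKM in Ikzf1-cko ex vivo and 6.50, 7.63 and 6.93 FPKM in stimulated Ikzf1-cko libraries. Stimulated and ex vivo libraries did not overlap in either genotype, and the log2 fold changes were 0.80 (adjusted p = 0.014) and 0.65 (adjusted p = 0.022). The WT value did not pass the FDR with loess normalization (0.51) or DESeq2 (0.76) or without WT ex vivo replicate 2 (0.66), and the Ikzf1-cko value passed it under 13 of 20 alternatives. Regions of its level class, the lowest of the 10, had a median of 1.33 in WT with 72.2% higher past the FDR, and a median of 0.56 in Ikzf1-cko Treg with 21.6%. OCR_1306 reached 3.6 CPM in 6 libraries, all stimulated, so it entered the test only through the state where it was high. OCR_1306 was named after its values were seen. In Ikzf1-cko Treg, OCR_1268 (40166109 to 40166521) in an Il1r2 intron rose from 10.8 ± 1.23 to 15.4 ± 2.69 FPKM (log2 fold change 0.51, adjusted p = 0.033). OCR_1293 (40493751 to 40494468), near an internal Il1rl1 start site, rose from 5.30 ± 0.389 to 7.65 ± 1.65 FPKM (log2 fold change 0.52, adjusted p = 0.042). These rises passed the FDR under 13 of 21 and 11 of 20 alternatives, and the lowest values were 0.43 for OCR_1268 without Ikzf1-cko stimulated replicate 2 and 0.35 for OCR_1293 without Ikzf1-cko stimulated replicate 1.

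**Figure D4:**
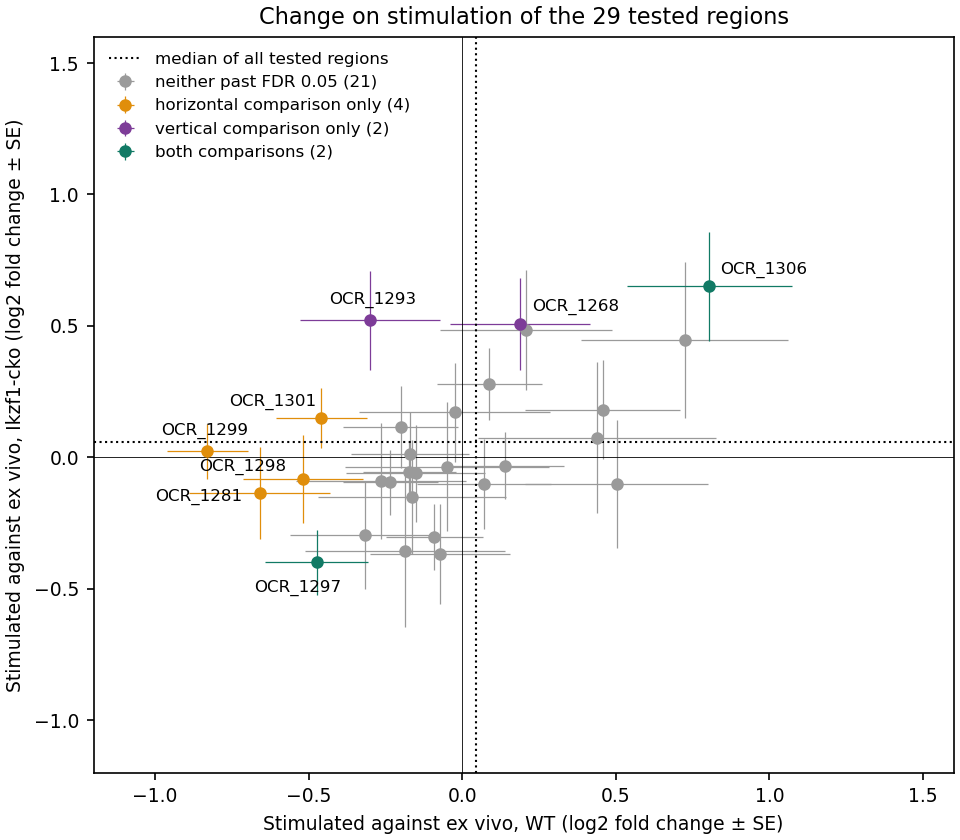
Log2 fold change of stimulated against ex vivo Treg in WT (horizontal) and Ikzf1-cko (vertical) for the 29 tested regions, with SE bars, coloured by which comparison passed the FDR, and dotted lines at the medians of all tested regions. OCR_1299 lies far to the left near 0 on the vertical axis, and OCR_1306 and OCR_1297 pass the FDR in both genotypes.

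The interaction tests whether stimulation changed a region differently without Ikaros. Of the 29 regions 0 passed both thresholds (1.98% of all tested regions did), and 3 had an unadjusted edgeR p under 0.05 (17108 of all 69957). By FDR alone 2 were positive (5.66% of all) and 0 negative (1.82% of all). Both were Il18r1 intron regions. For OCR_1299 the difference was 0.85 (SE 0.17, adjusted p = 0.0019), and it passed the FDR under all 20 alternatives, with a range of 0.66 to 0.96. In its level class the median interaction was 0.20, and 13.1% were positive past the FDR. For OCR_1301 the difference was 0.61 (SE 0.19, adjusted p = 0.042), in a level class with a median of 0.24 and 26.2% positive past the FDR. It passed the FDR under 8 of 20 alternatives. It missed the FDR with TMM (0.56), loess (0.42), DESeq2 (0.61), limma, no filter on low counts or a replicate block (adjusted p = 0.0502), and also without WT ex vivo replicate 3, Ikzf1-cko ex vivo replicate 3, WT stimulated replicate 1 or either of Ikzf1-cko stimulated replicates 1 and 2 (0.49 to 0.59).

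Of the regions over a first start site, those of Il18r1, Il1r2 and Il1rl2 did not pass the FDR between genotypes, whereas OCR_1264 near the Il1r2 starts did after stimulation, as given above. The Il18r1 start region OCR_1295 had 21.8 ± 1.11, 22.7 ± 1.02, 18.4 ± 2.18 and 21.1 ± 2.90 FPKM in WT ex vivo, Ikzf1-cko ex vivo, WT stimulated and Ikzf1-cko stimulated Treg, and the 95% intervals of its genotype differences were -0.20 to 0.31 ex vivo and -0.09 to 0.49 after stimulation. The region over the first Il1r2 start, OCR_1263 (40141347 to 40141822), had genotype intervals of -0.36 to 0.41 and -0.72 to 0.17. The Il1rl2 start region OCR_1276 (40381241 to 40382487) had -0.61 to 0.04 and -0.47 to 0.26, and it was also the most accessible region in the window of Il1r1. These intervals bound each difference and do not show that the genotypes were alike. The region near the internal Il1rl1 start, OCR_1293, had 7.60 ± 0.649 FPKM in WT and 5.30 ± 0.389 FPKM in Ikzf1-cko Treg ex vivo, a difference that did not pass the FDR (adjusted p = 0.054).

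The other 12 regions did not pass the filter on low counts, among them OCR_1273 (40323333 to 40323789), over an internal start of Il1r1, and OCR_1292 (40485921 to 40486432), over the first start of Il1rl1. In a fit without the filter 0 of the 12 passed the FDR between genotypes ex vivo, while 4.92% of all regions were higher and 10.7% lower. An unadjusted edgeR p under 0.05 was seen in 2 of the 12. The share of all regions under it in that fit is not given here. After stimulation OCR_1273 was lower in Ikzf1-cko Treg, with 9.05, 5.997 and 10.9 FPKM in WT and 5.22, 3.34 and 4.77 FPKM in Ikzf1-cko libraries (log2 fold change -0.95, adjusted p = 0.013). The intronic Il1r2 region OCR_1270 was lower as well (-0.89, adjusted p = 0.025), compared to 35.6% of all regions without the filter. With stimulation in WT, OCR_1273 (0.81, adjusted p = 0.044) and the Il1rl2 intron region OCR_1278 (0.97, adjusted p = 0.045) rose, compared to 32.3% of all regions. In Ikzf1-cko Treg OCR_1262, 6.74 kb upstream of Il1r2, rose (1.33, adjusted p = 0.01), compared to 11.7% of all regions. OCR_1292 had 3.996 ± 0.208, 5.16 ± 0.452, 6.38 ± 2.87 and 6.16 ± 1.33 FPKM in the 4 groups in the order above. OCR_1262, OCR_1270 and OCR_1278 were named after their values were seen.

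The other genes of the pathway are given by the regions within 20 kb of each. Those of the 10 ligand genes (Il1a, Il1b, Il18, Il33 and relatives) included 10 tested regions, of which 0 were called in any comparison. By FDR alone 2 of the 10 were higher and 0 lower in Ikzf1-cko Treg ex vivo, and 5 were higher and 1 lower after stimulation (8.78%, 12.7%, 20.4% and 30.7% of all tested regions). Of 13 tested regions of the coreceptor, decoys and other receptors (Il1rap, Il1rapl1, Il1rapl2, Sigirr and Il18bp), 1 was called lower ex vivo and 3 lower after stimulation in Ikzf1-cko Treg, compared to 4.63% and 21.3% of all tested regions called in either direction. A region of Sigirr, an inhibitory receptor of the family (OCR_105078), had 13.3 FPKM in stimulated WT and 4.07 FPKM in stimulated Ikzf1-cko Treg (log2 fold change -1.70, adjusted p = 8.9e-04). In WT ex vivo Treg it had 3.40 FPKM. Of these groups only stimulated WT Treg reached 3.6 CPM in this region, so it entered the test through the group where it was high. Regions of low level were broadly lower in stimulated Ikzf1-cko Treg by this scaling. In the lowest of the 10 level classes the median was -1.33, with 72.3% lower past the FDR. Stimulation raised 2 of the 13 in WT and 1 in Ikzf1-cko Treg, compared to 20.03% and 3.65% of all tested regions called in either direction.

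Among 72 tested regions of the signaling genes (Myd88, the Irak genes, Traf6 and others), 1 was called higher and 1 lower in Ikzf1-cko Treg ex vivo, and 0 higher and 2 lower after stimulation (4.63% and 21.3% of all tested regions). The higher region was OCR_95932 at Irak2, a kinase of the receptor complex, with 7.59 FPKM in WT and 17.6 FPKM in Ikzf1-cko ex vivo Treg (log2 fold change 1.19, adjusted p = 0.0015). WT ex vivo Treg did not reach 3.6 CPM there. The lower region ex vivo, OCR_95930, was also at Irak2 (log2 fold change -1.39, adjusted p = 0.021 by edgeR) and was lower after stimulation too (-1.46). It reached 3.6 CPM only in stimulated WT Treg. With stimulation 3 of the 72 signaling regions rose and 2 fell in WT, and 3 rose and 3 fell in Ikzf1-cko Treg (20.03% and 3.65% of all tested regions). The falls included OCR_15230 and OCR_15231 at Irak3, which encodes an inhibitor of IRAK signaling. OCR_15231 went from 52.3 to 15.7 FPKM in WT (log2 fold change -1.76, adjusted p = 2.7e-10) and from 51.8 to 23.4 FPKM in Ikzf1-cko Treg (log2 fold change -1.16, adjusted p = 2.0e-08). The median genotype difference of the signaling regions was 0.08 ex vivo and 0.22 after stimulation.

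The libraries had the open chromatin of Treg at the marker genes. The regions of Foxp3, Il2ra, Ctla4, Ikzf2, Cd3e and Cd4 had library means of 21.3 to 30.8 FPKM, and 5 of the 6 lay over a start site. The regions nearest to 4 B cell genes had library means of 9.57 to 12.3 FPKM, those of 3 myeloid genes 3.83 to 9.61 FPKM and those of 4 CD8 T and NK cell genes 5.47 to 10.1 FPKM, with none of these regions at 0 in any library. The CD8 T and NK cell list was higher in WT than in Ikzf1-cko libraries, ex vivo (7.82 to 9.09 and 5.47 to 6.89 FPKM) and stimulated (8.29 to 10.1 and 6.01 to 7.30 FPKM), and its part in the results was not tested. The 8 regions of effector and tissue Treg genes had library means of 22.8 to 24.8 FPKM in WT and 24.4 to 27.2 FPKM in Ikzf1-cko ex vivo, and 19.6 to 23.0 and 26.2 to 27.4 FPKM after stimulation, where 3 of them passed the FDR as higher and 1 as lower. The 7 regions of naive or central Treg genes, 6 of them tested, had 29.2 to 31.6 FPKM in WT and 29.8 to 33.7 FPKM in Ikzf1-cko ex vivo. After stimulation they had 24.3 to 27.1 and 28.6 to 30.7 FPKM, and 4 passed the FDR as higher and 1 as lower. Over all tested regions 20.4% were higher and 30.7% lower after stimulation, and highly accessible regions as a whole were higher by this scaling. Ex vivo 2 effector and tissue Treg regions were higher and 0 lower, and 1 naive or central Treg region was higher and 2 lower (8.78% and 12.7% of all). The Treg and T cell list had 21.3 to 25.7 FPKM in stimulated WT and 28.1 to 29.9 FPKM in stimulated Ikzf1-cko libraries. These 3 lists moved with the genotype in the same direction as the cluster after stimulation, and their part in the result was not tested.

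Over the 12 libraries the summed reads of the cluster followed most closely, among 15991 genes with at least 3 tested regions, those of Asxl2 (Pearson r 0.992 of log2 CPM), 1110002L01Rik (0.981), U4 (0.978), 3110002H16Rik (0.975) and Zrsr1 (0.970). The points are 4 groups of 3 libraries that share their depth and scaling, and the best of so many genes is high by selection.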

How the data were processed

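ATAC-seq libraries were assigned to genotype, state and replicate number by their sample labels. The authors aligned reads with Bowtie2 to mm9, per the labels' processing notes, whereas the printed methods name a human build. They removed duplicates, called peaks per replicate with MACS2 and merged peaks found in at least 2 replicates. The authors deposited, for each region and library, the count of reads left after removal of duplicates, not normalized. The deposited FPKM scales that count by the length of the region and by the counted reads of the library (12 of 12 totals matched), and a log2 FPKM value in the same deposited table was not used. A further deposited table of the authors' own comparisons (log2 fold changes, test statistics, p-values and FDR) was not used. The study's scaling against background bins needs reads outside the regions, so library totals were used.

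Counts were tested with edgeR 4.0.16 under R 4.3.3 (quasi-likelihood F-test, group means over 12 libraries, Benjamini-Hochberg over 69957 regions, 3.6 CPM or more in 3 or more libraries). Standard errors were derived from the fold change and the F statistic, and 95% intervals rest on them. The fit was checked on simulated counts. Alternatives were TMM, loess, DESeq2 1.42.0, limma 3.58.1 on log2(FPKM + 1) or log2(FPKM + 0.25), other filters, the compared groups alone, a replicate block, the FDR alone and leaving out each replicate. For each gene, the region over or nearest to a start site, the highest region and that with the smallest p were named, with all called regions. The members and lists were chosen with earlier results of these data known. Motifs were exact matches on either strand of NCBIM37. Library totals of 4808916 to 15355521 reads give 9 to 79 reads for OCR_1287. Spi1 was not matched by symbol and is not analysed here. Other steps used Python 3.11.15, pandas 2.3.3, NumPy 2.4.6 and Matplotlib 3.10.9.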

Additional observations from a re-analysis of the deposited data

Results flagged for a closer look

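For 2 regions of the Il18r1 introns the change with stimulation differed between Ikzf1-cko and WT Treg by the test of the difference itself. In OCR_1299 it was 0.85 higher on the log2 scale in Ikzf1-cko Treg (edgeR, adjusted p = 0.0019), and the libraries of stimulated WT Treg were the low ones. In OCR_1301 it was 0.61 higher (edgeR, adjusted p = 0.042), but it passed the FDR under only 8 of 20 alternatives and missed it with TMM, loess, limma, DESeq2, no filter on low counts, a replicate block and 5 of the left-out replicates. Groups of 3 libraries were not searched for single outlying libraries.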

How the results depend on the processing

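The number of regions passing both thresholds was 2 ex vivo and 1 after stimulation between genotypes, and 0 for stimulation in WT, stimulation in Ikzf1-cko and the interaction. With the FDR alone these were 4, 6, 6, 4 and 2. With 3.6 CPM required in all 12 libraries, which leaves 15 of the regions tested, the genotype counts were 1 and 0. With limma on log2(FPKM + 1) the ex vivo count was 0, with loess normalization the count after stimulation was 2, and without the filter stimulation in Ikzf1-cko gave 1. Leaving out 1 replicate at a time gave 1 to 2 regions ex vivo (1 without WT ex vivo replicate 1, WT ex vivo replicate 3 or Ikzf1-cko ex vivo replicate 2), 0 to 1 after stimulation (0 without WT stimulated replicate 2), and 0 to 1 for stimulation in WT (1 without WT ex vivo replicate 2). The cause of these shifts was not tested beyond the thresholds and samples that the alternatives change. Of the 75 values of the named tested regions, 22 passed the FDR, none of these changed sign under an alternative that was run, and 9 passed the FDR under every one. Of the 53 others, 20 changed sign under at least 1 alternative. Deeper Ikzf1-cko libraries make low values less precise in WT.

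The replicate numbers were not taken as pairs: over the 18 pairs of libraries with the same number in different groups, the correlation of their deviations from the group means was over 0.1 in 6. With a replicate block the counts were 2, 1, 0, 0 and 0, as without it. The interaction of OCR_1301 lost its FDR call under the block (adjusted p = 0.0502), and no other call of a named region was lost. The sorted cells were divided between the states, but nothing ties a replicate number to 1 sort.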

Other observations

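The neighbourhood of the cluster gave a background for its changes. Within 1 Mb on either side of the outermost windows, 70 of 103 regions were tested. Between genotypes 3 were called ex vivo (1 higher and 2 lower in Ikzf1-cko Treg) and 2 after stimulation (both lower). Over all tested regions 4.63% and 21.3% were called. The median log2 fold change of these flanking regions was -0.06 ex vivo and 0.04 after stimulation. By FDR alone 20 of the 70 fell with stimulation in WT and 15 in Ikzf1-cko Treg (20.7% and 11.5% of all tested regions). The numbers that rose were 2 and 6 (26.9% and 11.99% of all). Of the 5 regions that lie between the gene windows of the cluster, 4 were tested and 0 were called in any of the 5 comparisons by edgeR. By FDR alone 2 were higher in Ikzf1-cko Treg ex vivo and 1 after stimulation, with medians of 0.55 and 0.50. Over all tested regions 8.78% and 20.4% were higher by FDR alone.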
